A study of Mus musculus with 8 samples.

Results

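The family of miR-15, miR-16, miR-322 and miR-503 was followed in mouse kidneys after acute injury by lipopolysaccharide (LPS), which is shed from the outer membrane of Gram-negative bacteria. It was represented by 8 of the 1881 mouse miRNAs on the array, chosen by name: mmu-miR-15a-5p, mmu-miR-15b-5p, mmu-miR-16-5p, mmu-miR-195a-5p, mmu-miR-497a-5p, mmu-miR-322-5p, mmu-miR-322-3p and mmu-miR-503-5p, written below without the species prefix. The 4 LPS samples (replicates 6, 10, 11 and 12) came from mice injected intraperitoneally with 10 µg LPS per g of body mass, and the 4 sham samples (replicates 5, 6, 7 and 8) from mice given saline in its place. Kidneys were taken after 24 h, and total RNA from 30 mg of tissue was labelled with Cy3 and hybridised to Agilent arrays of short probes. The labels used here give no strain, sex, age or genotype and do not state that each sample came from its own animal. The p-values below set differences between the groups against the spread between these samples. Whether that is a spread between animals is not known. Whole kidney was sampled, so a change in the amount of a cell type and a change in the miRNA per cell cannot be told apart.

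A miRNA guides an Argonaute protein to messenger RNAs that pair with its seed, the bases from 2 to 8 of its 5′ end, and these messages are then degraded or less translated. The 5p members named here share all or most of this seed, and the family is known for holding back the cell cycle, through targets such as cyclins D and E, and for lowering the anti-apoptotic protein BCL2. MiR-322 is the mouse counterpart of human miR-424 and is transcribed together with miR-503.

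The mature sequences below were read from RefSeq (GRCm38.p6), which held all 8 members. They are shown 5′ to 3′ because the seed, in capitals, defines the family and because the bases after it are what most of the probes tell apart.
miR-15a-5p: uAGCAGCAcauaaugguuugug
miR-15b-5p: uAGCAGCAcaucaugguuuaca
miR-16-5p: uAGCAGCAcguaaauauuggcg
miR-195a-5p: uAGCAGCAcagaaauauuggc
miR-497a-5p: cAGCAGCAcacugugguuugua
miR-322-5p: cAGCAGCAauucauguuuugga
miR-503-5p: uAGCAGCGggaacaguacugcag
miR-322-3p: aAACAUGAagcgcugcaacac
The 8 members carried 3 distinct seeds. The commonest was shared by 6 members, and miR-503-5p differed from it in the last seed base (A8G against miR-322-5p, counted from 1 at the 5′ end of miR-322-5p). MiR-322-3p, the other arm of the miR-322 hairpin, had an unrelated seed. MiR-16-5p and miR-195a-5p were the closest pair, identical at 19 of 21 bases, with G10A and U11G from miR-16-5p to miR-195a-5p.

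The members come from 4 pairs of neighbouring hairpins. MiR-15a and miR-16-1 lie 54 bases apart at chr14:61631880-61632110, within the long noncoding RNA Dleu2. MiR-15b and miR-16-2 lie 66 bases apart at chr3:69009772-69009996, within Smc4, a condensin gene. Both pairs give the same miR-16-5p, so the array cannot tell the loci apart. MiR-497 and miR-195a lie 241 bases apart at chr11:70234717-70235135. RefSeq listed no gene there that holds either mature sequence, in a search that left out genes with names starting in Mir. MiR-322 and miR-503 lie 200 bases apart at chrX:53053984-53054349, on the minus strand within the noncoding RNA C430049B03Rik. The hairpins of this X-linked pair, in which the results differed most, are given with both mature arms in capitals.
Mir322: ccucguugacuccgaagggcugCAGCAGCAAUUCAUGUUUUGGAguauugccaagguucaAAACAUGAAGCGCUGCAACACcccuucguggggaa
Mir503: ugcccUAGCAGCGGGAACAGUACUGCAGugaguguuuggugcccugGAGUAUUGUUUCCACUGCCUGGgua

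Of the 8 members, miR-503-5p was the 1 that passed the test, and it was lower in LPS kidneys. It was detected on 2 of 4 LPS and 4 of 4 sham arrays. It was therefore tested only through the sham group, where it was higher, and its call is limited by that filter. The 5p arms of miR-15a, miR-15b, miR-16, miR-195a, miR-497a and miR-322, which share a seed, did not pass the test. With the main scaling their LPS means lay within 0.10 log2 units of the sham means. Other scalings gave differences from -0.17 (miR-322-5p, labelling spike-ins) to 0.17 (miR-15b-5p, no scaling), which did not pass either. Across the array 136 of 338 tested miRNAs passed (40.2%), 50 of them higher (14.8%) and 86 lower (25.4%) in LPS kidneys. That split depended on the scaling: 55 were higher and 53 lower with the percentile taken over all probes, 57 and 49 without scaling, 65 and 66 with cyclic loess, and 34 and 148 with labelling spike-ins. Leaving out 1 array gave 85 to 152 calls in all, the fewest without sham replicate 6, and 88 without LPS replicate 12. The median difference of the 8 members was -0.01, against -0.08 over all 338. Levels here are log2 signals after division by each array's 75th percentile, differences are LPS minus sham from limma, and the threshold is an adjusted p of 0.05 (Benjamini-Hochberg over the 338 miRNAs).

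**Figure D1:**
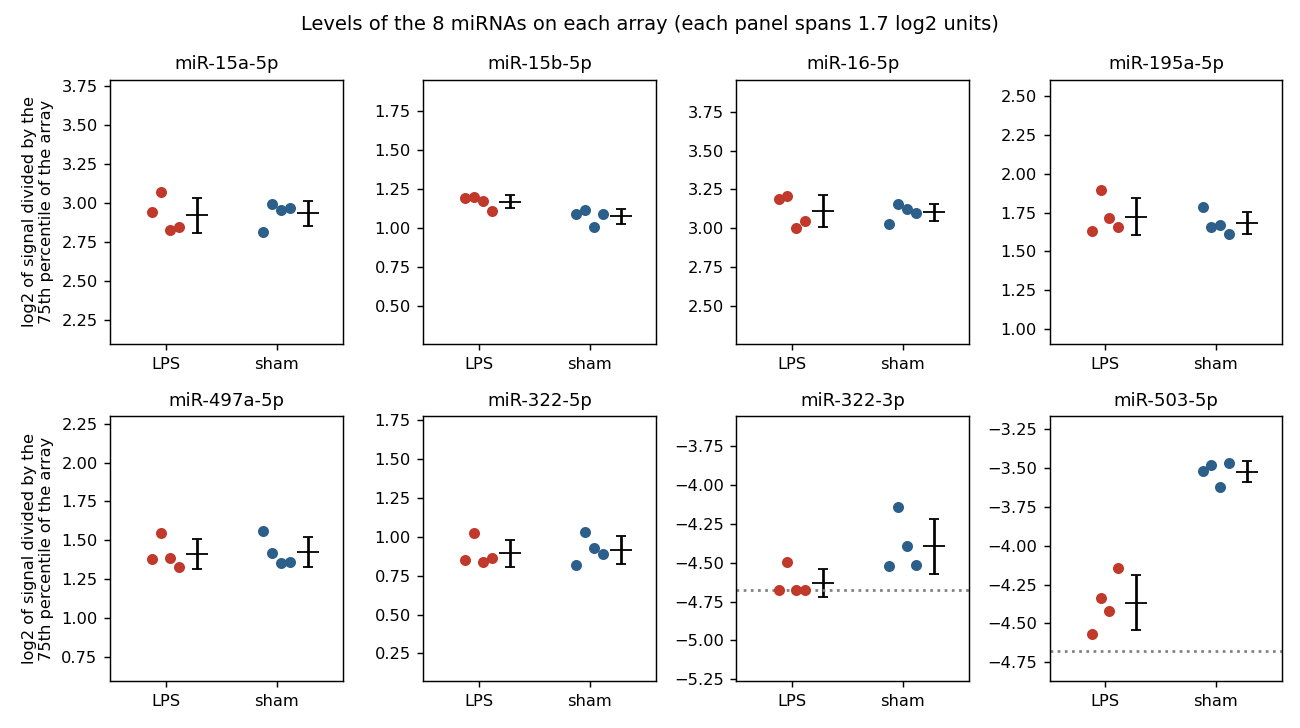
Level of each member on each array, as log2 signal after division by that array's 75th percentile, with 4 LPS arrays (red) left of 4 sham arrays (blue) and black bars for mean ± SD. Each panel has its own range of the same height, and the dotted line marks the lowest value the analysis allows (-4.68). MiR-503-5p is the 1 member whose groups do not overlap.

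MiR-15a-5p stood at 2.94, 3.07, 2.83 and 2.84 on the LPS arrays, against 2.82, 2.996, 2.95 and 2.97 on the sham arrays. The groups overlapped, and the highest value was LPS replicate 10. The difference was -0.01 (SE 0.07, 95% interval -0.18 to 0.15, limma adjusted p = 0.896). MiR-16-5p, the member made at both the chromosome 14 and the chromosome 3 locus, stood at 3.19, 3.21, 2.9998 and 3.04 in LPS kidneys, against 3.03, 3.15, 3.12 and 3.101 in sham kidneys. Its LPS values lay on both sides of the sham range. The difference was 0.01 (SE 0.06, 95% interval -0.14 to 0.16, limma adjusted p = 0.923).

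MiR-15b-5p, the partner of miR-16 on chromosome 3, had levels of 1.19, 1.20, 1.17 and 1.11 in LPS kidneys and 1.09, 1.11, 1.002 and 1.09 in sham kidneys. All LPS values except that of replicate 12 exceeded all sham values. The difference of 0.10 (SE 0.05, 95% interval -0.02 to 0.21) did not pass the test (limma adjusted p = 0.160).

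Both miRNAs of the chromosome 11 pair had overlapping groups. MiR-195a-5p stood at 1.63, 1.89, 1.71 and 1.66 in LPS kidneys, against 1.79, 1.66, 1.67 and 1.62 in sham kidneys, a difference of 0.04 (SE 0.07, 95% interval -0.12 to 0.21, limma adjusted p = 0.683). MiR-497a-5p stood at 1.38, 1.55, 1.38 and 1.33 in LPS kidneys, against 1.56, 1.42, 1.36 and 1.36 in sham kidneys, a difference of -0.01 (SE 0.07, 95% interval -0.18 to 0.15, limma adjusted p = 0.904). The same arrays were highest for both: LPS replicate 10 and sham replicate 5.

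MiR-322-5p, which carries the shared seed and lies beside miR-503, had levels of 0.85, 1.02, 0.84 and 0.87 in LPS kidneys and 0.82, 1.03, 0.93 and 0.89 in sham kidneys. The groups covered almost the same range. The difference was -0.02 (SE 0.07, 95% interval -0.17 to 0.13, limma adjusted p = 0.828).

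MiR-503-5p stood at -4.57, -4.33, -4.42 and -4.15 on the LPS arrays, against -3.52, -3.48, -3.62 and -3.47 on the sham arrays. Every LPS array was below every sham array, as it was for 37.0% of the tested miRNAs in one direction or the other. It fell by 0.84 log2 units (SE 0.09, 95% interval -1.05 to -0.64, limma adjusted p = 3.03e-04), with means of -4.37 ± 0.18 in LPS and -3.52 ± 0.07 in sham kidneys (SD, n = 4 each). Its signal was dim: it was detected on 2 of 4 LPS arrays (replicates 10 and 12) and on 4 of 4 sham arrays. It was therefore tested only because of its detection in the sham group, where it was higher. The size of the fall was not fixed by the data, and it lay between -1.18 and -0.15 under the alternatives that tested it.

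**Figure D2:**
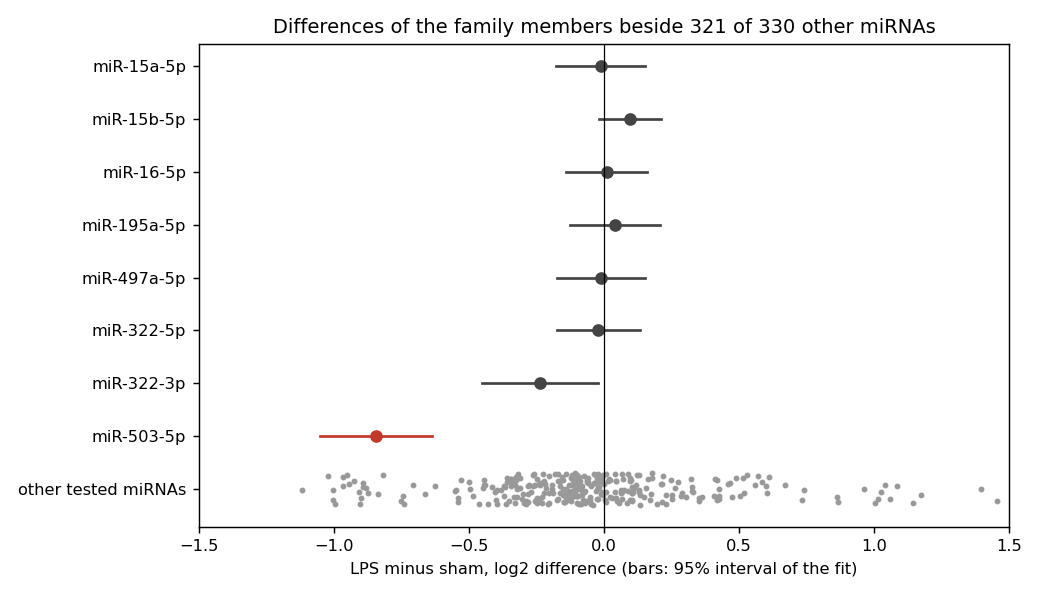
Difference of each member (point, with the 95% interval of the fit) on the log2 scale, LPS minus sham, above 321 of the 330 other tested miRNAs (grey points, spread vertically for visibility). The 9 that lie outside the axis are not drawn. MiR-503-5p, in red, is the 1 member that passed the test, and the intervals of the members in the upper 6 lines lie between -0.18 and 0.21.

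MiR-322-3p was the other dim member. It stood at -4.50 on LPS replicate 10 and at the lowest allowed value of -4.68 on the remaining LPS arrays, against -4.52, -4.15, -4.39 and -4.52 on the sham arrays. The groups overlapped at LPS replicate 10. The difference of -0.24 (SE 0.09, 95% interval -0.45 to -0.02) had an unadjusted p of 0.0351 and did not pass after adjustment (limma adjusted p = 0.0786). It passed when the column of the slide was fitted as a block (limma adjusted p = 0.0450), and the differences within the 4 columns were -0.15, -0.35, -0.28 and -0.16. Values at the lowest allowed level hide part of the spread between samples.

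The array carries 18 probes for the 8 members, of which 14 were tested among 633 probes in all. The 12 probes of the 6 seed-sharing members had every spot well above background, differed by -0.06 to 0.10 log2 units and were not called (lowest adjusted p = 0.167, Benjamini-Hochberg over the 633 probes in limma). The number of member probes called, a count added after seeing the data, was 1, where 246 of all 633 were (38.9%). That probe was the longer of the pair for miR-503-5p, at -0.72 (SE 0.07, limma adjusted p = 1.46e-04), with LPS replicates 6 and 11 at the lowest value allowed for a probe (-4.85). Probes of 1 miRNA read the same RNA and are not replicates.

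Probes of the dim members are given 5′ to 3′ because those of miR-503-5p differ by 1 base at the 3′ end and only the longer was detected, with capitals where they pair with the seed.
miR-503-5p, longer probe: ctgcagtactgttccC
miR-503-5p, shorter probe: ctgcagtactgttcc
miR-322-3p, longest probe: gtgttgcagcgctT
Before scaling, the longer miR-503-5p probe had mean signals of 16.2, 19.1, 18.1 and 19.6 intensity units on the LPS arrays, against 28.8, 29.7, 27.9 and 30.7 on the sham arrays. Of its 15 spots, 14.3%, 60%, 40% and 60% of those kept were well above background on the LPS arrays, against 86.7% on sham replicate 5 and 100% on the remaining sham arrays. The shorter probe read 5.32, 7.55, 6.47 and 8.26 on the LPS arrays, against 13.2, 12.4, 13.5 and 14.5 on the sham arrays. Both probes thus separated the groups without overlap, although the shorter was not detected on any array. The 99th percentile of negative control spots lay at 9.32 to 12.6 on the LPS arrays and 9.30 to 11.6 on the sham arrays.

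**Figure D3:**
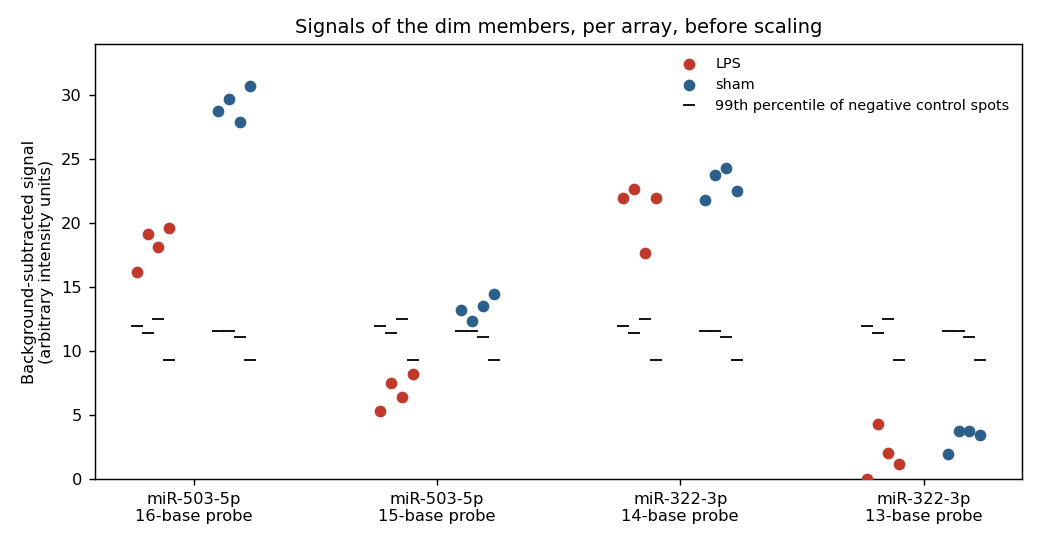
Background-subtracted signal before scaling, in intensity units, of the 2 probes for miR-503-5p and the 2 longest probes for miR-322-3p, with LPS arrays (red) left of sham arrays (blue). Black dashes give the 99th percentile of the negative control spots on the same array. Both miR-503-5p probes are lower on every LPS array, and the miR-322-3p groups overlap.

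For miR-322-3p, 1 of 4 probes was detected. It read 22.0, 22.6, 17.7 and 21.9 units on the LPS arrays, against 21.8, 23.8, 24.3 and 22.5 on the sham arrays. The groups overlapped, and LPS replicate 11 was lowest. Its difference was -0.20 (SE 0.09, limma adjusted p = 0.0989), and the level of the miRNA also sums its undetected probes, some of which had signals below 0.

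The dimness of miR-503-5p was set beside that of other miRNAs. With miR-503-5p itself counted, 35 tested miRNAs had a mean level within 0.5 log2 units of its own (-3.95). Of these, 7, miR-503-5p among them, were called lower and 10 higher in LPS kidneys, and the median difference was -0.06. Because detection in either group sufficed for testing, a dim miRNA could enter through the group where it was higher. The counts are shaped by that filter and are not a neutral background. Within the 4 columns of the slide, each of which held 1 LPS and 1 sham array, miR-503-5p differed by -1.05, -0.85, -0.80 and -0.68. LPS was lower in every column. The LPS arrays filled 1 row of the slide and the sham arrays the other, so row and group cannot be told apart.

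The clusters were compared through 3 pairs of members, for which the array scaling cancels. The change of miR-16-5p minus that of miR-195a-5p was -0.03 log2 units (95% interval -0.21 to 0.31, 2-sided exact permutation p = 0.743). For miR-16-5p minus miR-322-5p it was 0.03 (interval -0.05 to 0.21, exact p = 0.657), and for miR-195a-5p minus miR-322-5p it was 0.06 (interval -0.19 to 0.24, exact p = 0.457). All adjusted p-values over the 3 pairs were 0.743, where 4 against 4 arrays allow no exact p below 0.0286. The intervals, added after seeing the data, hold the values not rejected by the exact test. They do not show that the clusters moved alike. The miR-195a-5p probes each have 2 mismatches to miR-16-5p, and whether they also read miR-16-5p was not tested.

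Differences within clusters are given as a description, with no test. The change of miR-15a-5p minus that of miR-16-5p was -0.02, that of miR-15b-5p minus miR-16-5p 0.09 and that of miR-195a-5p minus miR-497a-5p 0.05, with overlapping groups in each. In the X-linked cluster the change of miR-322-5p minus that of miR-503-5p was 0.82, and LPS and sham arrays did not overlap. Its size depended on the processing: it was 0.13 with the floor 1 log2 unit higher, 0.19 with normexp, 0.34 where probes were averaged on the log scale, and 1.16 with both the manufacturer's total signal and the deposited ratio table. The 2 arms of the miR-322 hairpin differed by 0.21, 5p minus 3p, again without overlap, although 3 of 4 LPS values of the 3p arm were at the lowest allowed level. That value was -0.02 with the floor 1 unit higher, where all values of the 3p arm were at the floor, and 0.50 with the floor 1 unit lower.

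Over the 8 arrays, which share the scaling of each array, miR-15a-5p and miR-16-5p correlated at r = 0.903 and miR-195a-5p and miR-497a-5p at 0.869. MiR-15b-5p and miR-16-5p correlated at 0.267, and miR-15a-5p and miR-322-5p, of different clusters, at 0.859. In the X-linked cluster r was 0.180 for miR-322-5p with miR-503-5p, 0.748 for miR-322-5p with miR-322-3p and 0.689 for miR-322-3p with miR-503-5p. These values pool LPS and sham arrays, so differences between the groups enter r. MiR-322-3p was at the lowest allowed value of -4.68 on LPS replicates 6, 11 and 12. Outside the family, the miRNAs most like miR-16-5p were miR-22-5p (0.913), miR-101a-3p (0.828) and miR-191-3p (0.828), and those most like miR-322-5p were miR-26b-5p (0.931), miR-335-5p (0.906) and let-7f-5p (0.832). They were not called in the comparison of LPS with sham.

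The related miRNAs on the array gave little signal. All 7 other arms (miR-15a-3p, miR-15b-3p, miR-16-1-3p, miR-16-2-3p, miR-195a-3p, miR-497a-3p and miR-503-3p) were undetected on all 8 arrays. So were 6 listed relatives, of which miR-195b, miR-6342, miR-6353 and miR-6419 carry the shared seed. Of 9 neighbours in the X-linked cluster, miR-450a-5p alone was tested. It stood at -2.24, -2.17, -2.44 and -2.29 in LPS kidneys, against -2.34, -2.06, -2.15 and -2.12 in sham kidneys. The groups overlapped, and the difference was -0.12 (SE 0.08, limma adjusted p = 0.263). MiR-450a-2-3p was detected on 2 of 4 LPS and 3 of 4 sham arrays and so was not tested. Its levels were -3.90, -4.30, -4.17 and -3.84 in LPS kidneys, against -3.87, -3.59, -3.89 and -3.74 in sham kidneys, with overlapping groups.

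**Figure D4:**
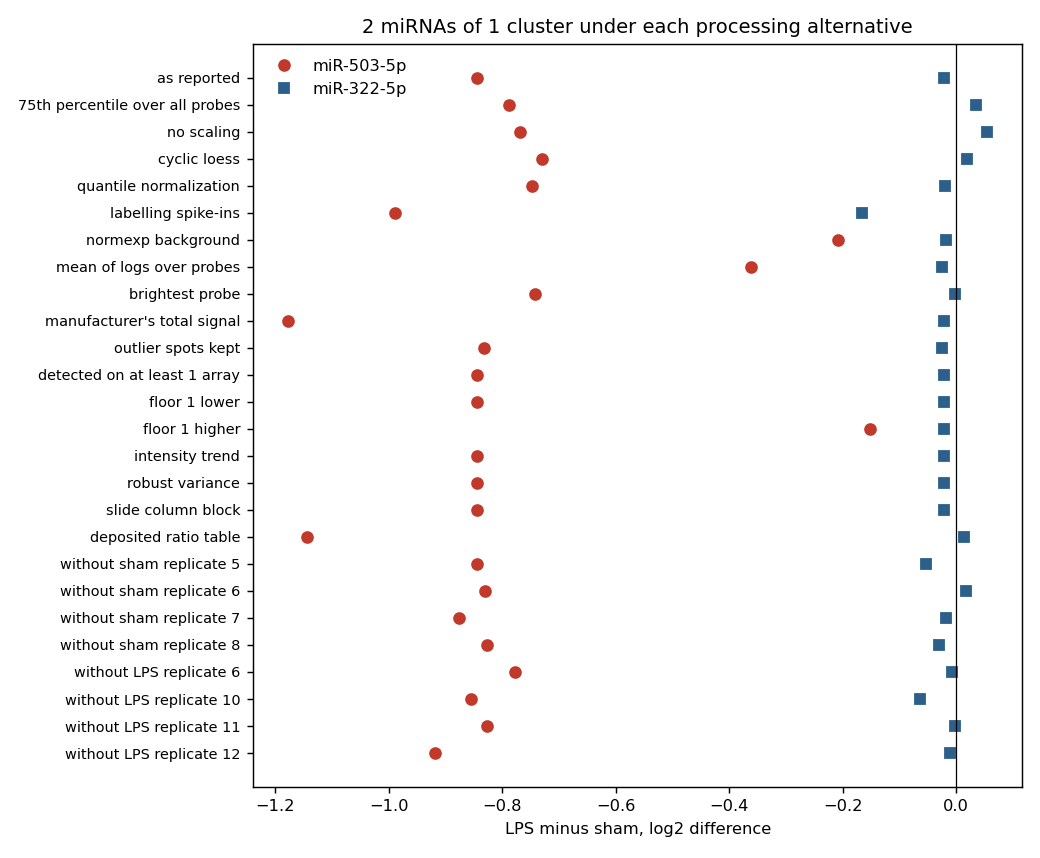
Difference on the log2 scale, LPS minus sham, of miR-503-5p (red circles) and miR-322-5p (blue squares), 2 miRNAs of the same X-linked cluster, as reported (top line) and under each alternative that tested both. MiR-503-5p lies between -1.18 and -0.15 and is below miR-322-5p in every line.

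MiR-503-5p passed the test in all 25 alternatives that tested it (limma adjusted p between 1.13e-05 and 0.0193). These alternatives reuse the same arrays and are not independent support. MiR-503-5p met the detection filter only through the sham group, in which it was higher, and was not tested where detection on all arrays was required. Its difference was -0.21 with normexp background correction, whose added offset of 50 by construction shrinks differences of dim miRNAs, -0.36 with the mean of logs over probes, -0.15 with a floor 1 log2 unit higher and -1.14 in the deposited ratio table. MiR-322-3p passed in 3 of 26 alternatives. The 6 seed-sharing members did not pass in any of 26 (adjusted p of 0.0623 or more).

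Marker miRNAs of other cells also differed between the groups. Summed over the 4 of 5 red cell markers that the array carried, the level was 1.03 to 3.80 in LPS and -0.95 to 1.66 in sham kidneys, with miR-451a and miR-144-3p called higher. MiR-16-5p is also abundant in red cells. MiR-451a stood at 3.68, 0.90, 3.16 and 2.48 in LPS kidneys, against 0.53, -1.09, -0.48 and 1.54 in sham kidneys. The sum of 6 leukocyte markers was 1.79 to 1.89 in LPS and 1.18 to 1.64 in sham kidneys, with 2 of 6 called higher (miR-223-3p and miR-155-5p). The remaining leukocyte markers were not called and went in different directions. Their log2 differences were 0.26 (miR-142a-3p), 0.13 (miR-142a-5p), -0.01 (miR-342-3p) and -0.22 (miR-150-5p). The sum of 6 tubule markers was 4.97 to 5.13 in LPS and 5.09 to 5.21 in sham kidneys, with 5 of 6 called lower. The remaining tubule marker, miR-10a-5p, was not called (log2 difference 0.10). For the 2 endothelial markers the sum was 4.10 to 4.27 in LPS and 4.13 to 4.23 in sham kidneys, with 0 called. Of the smooth muscle markers 1 of 2 was called lower (miR-145a-5p, log2 difference -0.44), and miR-143-3p was not called (0.05). Of the striated muscle markers 0 of 2 tested were called. MiR-122-5p, the liver marker, was at the lowest allowed value on all 8 arrays. The part of these cells in the fall of miR-503-5p was not tested.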

How the data were processed

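The authors deposited scanner output with an intensity per spot, background-subtracted and not scaled between arrays per the file headers. It was made with Agilent Feature Extraction 12.0.3.1, per the submitters' processing notes. A deposited table of ratio values per miRNA, linear and centred on each miRNA, was used as an alternative. Its array factors are not given in the sources used here.

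Outlier spots were left out, the spots of a probe averaged, and probe signals divided by the array's 75th percentile, taken over the 551 probes detected on all arrays. Probes of a miRNA were summed, floored at -4.68 and log2-transformed. A miRNA was detected if, for any probe, over 50% of spots were well above background. Testing required detection on all 4 arrays of either group and used limma 3.58.1 (R 4.3.3), checked on simulated data. Each array had 58594 spots on 1 slide, with 15.8% to 17.5% of non-control spots well above background. The number of arrays limits the precision.

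The miRNAs named were the members, their other arms, seed relatives and cluster neighbours, the 3 most correlated with miR-16-5p and with miR-322-5p, and cell type markers. Members and lists were chosen with earlier results of these data known. Alternatives covered scaling, background, probe summary, filter, floor, variance model, slide column, the ratio table and leaving out each array.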

Additional observations from a re-analysis of the deposited data

Results flagged for a closer look

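LPS replicate 10 stood apart from the other LPS arrays for miR-322-5p, at 1.02, and for miR-322-3p, at -4.50. For miR-322-3p the other 3 LPS arrays were at the lowest allowed value, so any value above it stood apart. In all 18 groups were examined, and chance flags about 1 in 20.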

How the results depend on the processing

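The fall of miR-503-5p kept its direction and its call in every alternative that tested it, with -0.92 to -0.78 when an array was left out. It was not tested when detection on all arrays was required, so 0 members were called there. With the labelling spike-ins, the floor 1 log2 unit lower and the slide column as a block, 2 members were called, the second being miR-322-3p (-0.33, -0.52 and -0.24, adjusted p = 0.0145, 0.0472 and 0.0450 in limma). With the floor 1 higher all values of miR-322-3p were at the floor, and the change of miR-322-5p minus that of miR-322-3p turned to -0.021. MiR-450a-5p was called with spike-ins alone (-0.27, adjusted p = 0.0437). The 136 calls over all miRNAs became 80 with the column block and 85 to 152 when an array was left out, with 85 without sham replicate 6 and 88 without LPS replicate 12. Calls higher and lower in LPS numbered 55 and 53 with the all-probe percentile, 57 and 49 without scaling, 65 and 66 with cyclic loess, and 34 and 148 with spike-ins, where the median of all miRNAs moved to -0.23.

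Signs turned for differences that did not pass the test in either setting, and the cause was not tested. MiR-15a-5p, miR-497a-5p and miR-322-5p were at 0.043, 0.044 and 0.035 with the all-probe percentile, 0.063, 0.064 and 0.055 without scaling, 0.017, 0.023 and 0.019 with loess, and 0.021, 0.022 and 0.013 in the ratio table. MiR-15a-5p was at 0.0022 with quantile normalization and miR-497a-5p at 0.012 by its brightest probe. With spike-ins miR-15b-5p, miR-16-5p and miR-195a-5p were at -0.048, -0.13 and -0.10. MiR-15a-5p, miR-497a-5p and miR-322-5p, whose signs did not turn there, were at -0.16, -0.16 and -0.17. By probe, miR-15a-5p was at 0.042 and 0.044, the shorter miR-16-5p probe at 0.042 and miR-322-5p at 0.010 and 0.054 with the all-probe percentile. Without scaling these were 0.062, 0.064, 0.062, 0.030 and 0.074, and the shorter miR-497a-5p probe was at 0.016.

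Leaving out an array gave -0.063 to 0.017 for miR-15a-5p, -0.024 to 0.046 for miR-16-5p, -0.015 to 0.075 for miR-195a-5p, -0.058 to 0.034 for miR-497a-5p and -0.064 to 0.016 for miR-322-5p. The change of miR-16-5p minus that of miR-322-5p ranged from -0.010 to 0.049, and minus that of miR-195a-5p from -0.090 to 0.0026. By probe the ranges, shorter probe first, were -0.065 to 0.018 and -0.061 to 0.017 for miR-15a-5p, -0.044 to 0.023 and -0.016 to 0.056 for miR-16-5p, and -0.014 to 0.076 and -0.016 to 0.076 for miR-195a-5p. They were -0.046 to 0.031 for the longer miR-322-5p probe and -0.032 to 0.058 for the longer miR-497a-5p probe. No paired analysis was possible because, by replicate number, the groups share only number 6; slide column pairs arrays by position and was fitted as a block.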
